A study of Mus musculus with 2 samples.

Results

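Mitochondrial ribosomal protein genes encode the proteins of the mitochondrial ribosome, and their levels were compared between 2 arrays of mouse B cells. The members were all genes whose symbol in the platform annotation starts with Mrpl or Mrps followed by a number. There were 76 of them among the 18193 genes measured by a probe set that names only that gene. Where several probe sets named a gene, the one with the strongest average signal gave its value. A further 2 symbols of this kind were named only on probe sets shared with another gene and were given no value.

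The series holds 1 array titled mir155KO and 1 titled mir155WT. The first carries the genotype entry mir155 KO and the second the entry mir155 WT, and both are of B cells from male mice of C57 background supplied by the Jackson Laboratory. The knockout allele and the number of animals behind each array are not named in the labels. The design text calls the cells cultured and activated, whereas the growth protocol describes blood progenitors grown for 6 days in medium with stem cell factor and G-CSF. All samples received cycloheximide, an inhibitor of translation elongation, at 100 ug/ml for 8 min before harvest. Both arrays thus share the exposure, and whether its effect was equal on them was not tested.

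The mitochondrial ribosome translates the few proteins encoded by mitochondrial DNA, all of them subunits of the respiratory chain and of ATP synthase. Its ribosomal RNAs come from the mitochondrial genome, while every one of its proteins is encoded in the nucleus, made in the cytosol and imported. The large subunit holds the peptidyl transferase centre and the small subunit reads the messenger RNA. Many of the proteins have bacterial counterparts and others exist only in mitochondria. When B cells are activated they grow and divide, and mitochondria expand with them.

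The labels contradicted each other, and all signs depend on this. Titles and genotype entries were followed here, and the source names assign the genotypes the other way round. Mir155hg, the host transcript of miR-155, had a log2 level of 10.88 on the mir155KO array and 6.63 on the mir155WT array, at least 18.0-fold higher on the array titled knockout. The transcript went against the titles, and the position of its probe set with respect to the deletion is not known here. If the source names are right, every difference below changes sign. The deposited log2 intensities had nearly the same distribution on both arrays (largest gap between sorted values 0.063) and correlated at r = 0.997 over all 45101 probe sets. B cell markers were at or above the level taken as expression in 9 of 9 measured genes, with log2 levels of 8.74 to 14.48 on the mir155KO array and 8.51 to 14.48 on the mir155WT array. That level was reached by 6 of 7 macrophage and monocyte markers, 2 of 11 neutrophil and precursor markers, 2 of 6 stem and progenitor markers, 4 of 5 T cell markers and 2 of 4 dendritic cell markers. With 1 array per title nothing could be tested against replicate spread, and every value below is a single measurement.

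The mitochondrial ribosomal protein genes were close to equal on the arrays. All 76 lay above 6.71, the median of all probe sets and the level taken as expression. The members' log2 levels ran from 8.92 to 12.39 with a median of 10.98 on the mir155KO array. On the mir155WT array they ran from 8.99 to 12.26 with a median of 10.98. The log2 difference, mir155KO minus mir155WT, had a median of 0.04 over the members, an interquartile range from -0.01 to 0.11 and extremes of -0.17 and 0.24. The widest difference was 1.18-fold, and 54 of 76 members (71.1%) differed by less than 0.1 on the log2 scale. The same held for 45.3% of all genes, 49.1% of expressed genes and 52.4% of genes in the level range of the members (means from 8.95 to 12.32). Among related lists it held for 85.7% of 49 cytosolic ribosomal proteins and 81.1% of 74 oxidative phosphorylation subunits. It held for 69.2% of 26 protein import genes and 42.9% of 21 mitochondrial translation factors.

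**Figure D1:**
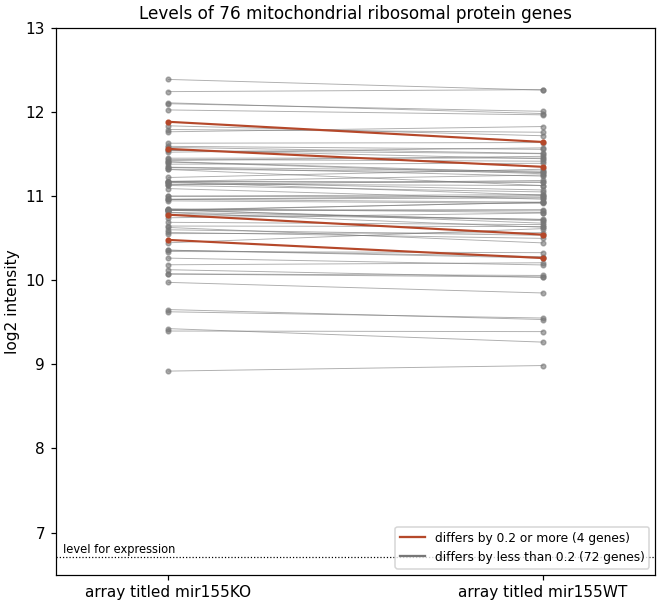
Log2 intensity of each of the 76 genes on the array titled mir155KO (left) and the array titled mir155WT (right), 1 line per gene, with the dotted line at the level taken as expression (6.71). The lines are nearly flat, and the 4 coloured genes, Mrpl39, Mrps15, Mrps9 and Mrpl12, are higher on the mir155KO array by 0.2 or more.

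Small differences leaned towards the mir155KO array, as they did among other genes of similar level. Of the 76 members 55 (72.4%) were higher on the mir155KO array and 21 lower. Among all genes measured 48% were higher, among the 10717 expressed genes 56.9%, and among the 5383 genes in the level range of the members 63.3%. The median difference was 0.04 in that level range too, 0.03 over expressed genes and 0.00 over all genes. The split of 55 against 21 depended on scaling and became 46 against 30 after quantile normalization and 41 against 35 after subtraction of a loess curve. After subtraction of the median of the level range it turned to 37 against 39, with a median of -0.003.

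Differences of 0.2 or more (1.15-fold) were seen in 4 members on the higher side and 0 on the lower side. On the higher side the share was 10.9% for all genes, 12.6% for expressed genes and 11.8% in the members' level range. On the lower side it was 14.4%, 9.54% and 7.06% in the same order. The 4 of 76 members (5.26%) thus did not exceed the background. The members' differences had an SD of 0.085, against 0.18 for all genes in their level range and 0.19 for expressed genes. This narrow spread was not particular to the members. Over expressed genes the SD was 0.083 for 26 protein import genes and 0.076 for 73 oxidative phosphorylation subunits, though 0.11 over all 74 of the latter. By the same rule it was wider than the members' for mitochondrial translation factors (0.092) and genes of mitochondrial ribosome assembly (0.10). Wider still were cytosolic ribosomal proteins (0.11) and genes of mitochondrial transcription and genome (0.17). The SD across genes describes how alike the members were and is not an error of any one value.

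**Figure D2:**
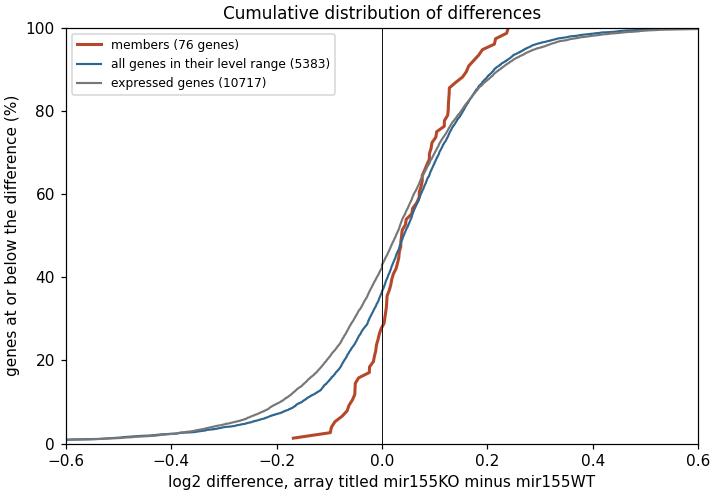
Cumulative share of genes (%) against the log2 difference, mir155KO minus mir155WT, for the 76 members, the 5383 genes in their level range and the 10717 expressed genes. The members' curve is steeper, from -0.17 to 0.24, and crosses its midpoint at 0.04, where the level range crosses too.

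A technical yardstick came from genes read by several probe sets. Across 4906 genes, the log2 differences given by the best expressed pair of probe sets lay a median of 0.084 apart, with a 95th percentile of 0.31. Of the members, 46 differed by less than this median disagreement, 26 of 76 were higher by at least that much and 4 of 76 lower. Higher by as much were 28.8% of all genes, 33.9% of expressed genes and 36.9% of genes in the level range, so the higher count was near the background. Lower by as much were 31.9% of all genes, 23.3% of expressed genes and 17.5% of genes in the level range. Among the 35 members with several expressed probe sets, the paired sets lay a median of 0.11 apart. In 21 of these 35 all sets had the same direction, 19 higher and 2 lower on the mir155KO array. The matching share over all genes with several expressed sets was not computed. Higher in any case were 56.9% of expressed genes and 63.3% of genes in the level range. The split of 19 against 2 is therefore not read as a result about the members.

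Mrpl39 had the highest difference. Its protein is a mitochondria-specific component of the large subunit that resembles threonyl-tRNA synthetase. The log2 level was 11.88 on the mir155KO array and 11.64 on the mir155WT array, a difference of 0.24 or 1.18-fold, and its other probe set differed by 0.26. Mrpl39 is also the next gene to Mir155 on chromosome 16 in the RefSeq order, where Mir155hg and Mir155 come directly before it. Further along that order, Jam2 differed by -0.02 below the level for expression. Atp5j, a subunit of ATP synthase, differed by 0.18, and Gabpa, the DNA-binding subunit of GABP, by 0.21. App, the amyloid precursor protein gene that follows, differed by 0.03 at log2 levels of 7.71 on the mir155KO array and 7.67 on the mir155WT array. The other 2 members on chromosome 16, Mrpl40 and Mrps6, differed by -0.002 and -0.02.

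Mrps15, Mrps9 and Mrpl12 were the other members past 0.2. Mrps15, the counterpart of bacterial S15, had log2 levels of 10.78 on the mir155KO array and 10.54 on the mir155WT array (difference 0.24), and its other expressed sets differed by 0.14 and 0.10. Mrps9, the counterpart of bacterial S9, stood at 10.48 on the mir155KO array and 10.26 on the mir155WT array (difference 0.22). The probe sets of Mrps9 did not settle on 1 direction, since the others gave -0.03, 0.29 and 0.16, and its difference was -0.03 when only plain _at probe sets were used. Mrpl12, the stalk protein that recruits translation factors, stood at 11.56 on the mir155KO array and 11.35 on the mir155WT array (difference 0.21), from a single probe set.

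Mrps31 was the lowest member. It encodes a mitochondria-specific protein of the small subunit, with log2 levels of 10.44 on the mir155KO array and 10.61 on the mir155WT array, a difference of -0.17 or 1.12-fold lower. Only 1 expressed probe set read it. Mrpl22, the counterpart of bacterial L22, stood at 11.22 on the mir155KO array and 11.32 on the mir155WT array (difference -0.10). Mrpl14, the counterpart of bacterial L14, stood at 10.83 on the mir155KO array and 10.93 on the mir155WT array (difference -0.10). Both were read by 1 probe set. Mrpl9, the counterpart of bacterial L9, stood at 10.84 on the mir155KO array and 10.92 on the mir155WT array (difference -0.09), and its other sets were lower too, at -0.11 and -0.15.

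**Figure D3:**
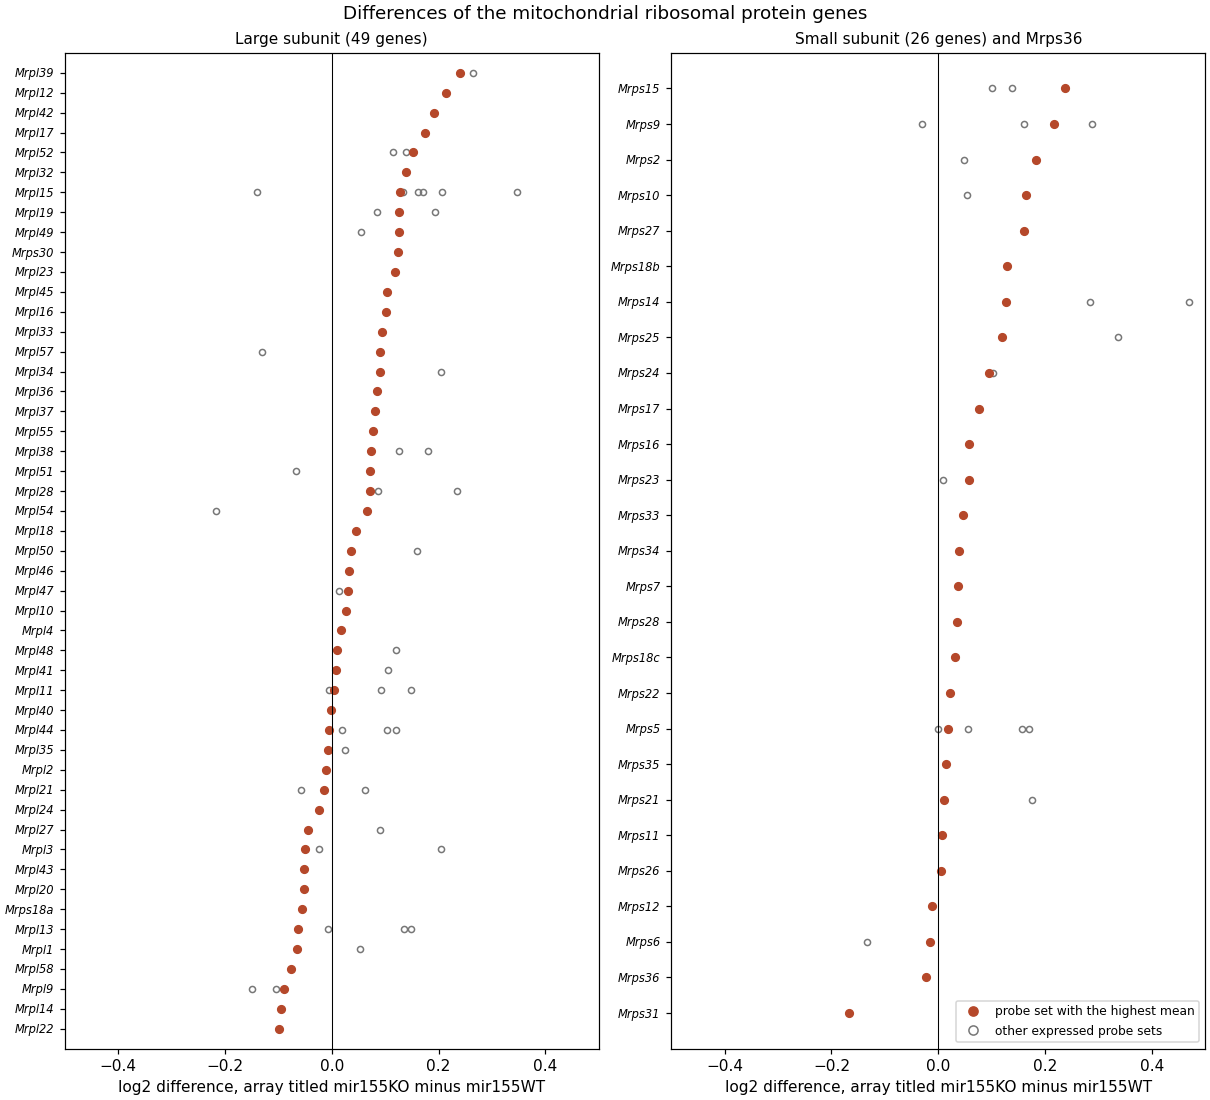
Log2 difference, mir155KO minus mir155WT, for each member of the large subunit (left) and of the small subunit with Mrps36 (right), sorted, with other expressed probe sets of the same gene as open circles. Filled points run from -0.17 (Mrps31) to 0.24 (Mrpl39), and open circles lie on the other side of 0 for several genes, among them Mrps9 and Mrpl54.

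The medians of the subunits were close, and the small subunit had fewer lower genes, a difference that was not tested. The 49 genes of the large subunit had a median log2 difference of 0.04 (32 higher, 17 lower), and the 26 of the small subunit 0.04 (23 higher, 3 lower). Lower were thus 34.7% and 11.5%, against 42.1% of expressed genes and 36.2% of genes in the level range. These counts depend on where 0 falls and were not computed by subunit after centring. The contrast is not read as a result about the subunits. The large-subunit median turned to -0.006 after loess subtraction and -0.005 after centring on the level range, while that of the small subunit lay between 0.001 and 0.08 over the alternatives. Mrps30 and Mrps18a carry small-subunit names but belong to the large subunit, and were counted there, at 0.12 and -0.06. Mrps36 is a component of the oxoglutarate dehydrogenase complex rather than of the ribosome, and it differed by -0.02.

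In the large subunit, the stalk proteins bind translation factors and had a median of 0.05 over 4 genes, which was 0.005 after loess subtraction or centring on the level range. Besides Mrpl12 these were Mrpl54 (0.07), Mrpl10 (0.03) and Mrpl11 (0.004), and a second probe set of Mrpl54 differed by -0.22. Proteins around the exit of the peptide tunnel had a median of 0.07 over 6 genes, from Mrpl22 (-0.10) to Mrpl17 (0.17). That median was 0.03 with the mean of probe sets, after loess subtraction and after centring on the level range. Mrpl45, which anchors the ribosome to the inner membrane, differed by 0.10, Mrpl23 by 0.12, Mrpl47 by 0.03 and Mrpl24 by -0.02.

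The central protuberance, the knob at the top of the large subunit, varied least of these groups by the probe sets used. Its 7 genes lay between Mrpl27 (-0.04) and Mrpl55 (0.08), with a median of 0.03 that turned to -0.006 after loess subtraction and -0.008 after centring on the level range. Mrpl38 differed by 0.07, Mrpl18 by 0.04, Mrpl46 by 0.03, Mrpl48 by 0.01 and Mrpl40, which lies in the human DiGeorge syndrome region, by -0.002. Other expressed probe sets lay outside the range given, at 0.18 and 0.13 for Mrpl38, 0.12 for Mrpl48 and 0.09 for Mrpl27.

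The other large-subunit proteins included those near the catalytic centre. Mrpl2, Mrpl3 and Mrpl4 differed by -0.01, -0.05 and 0.02, and Mrpl16 by 0.10. Other expressed sets of Mrpl3 gave -0.05, 0.20 and -0.02. Mrpl32, whose processing by a mitochondrial protease precedes its assembly, had log2 levels of 11.40 on the mir155KO array and 11.26 on the mir155WT array (difference 0.14). Among mitochondria-specific proteins Mrpl42 differed by 0.19, Mrpl52 by 0.15 and Mrpl37 by 0.08. Mrpl44, which has a ribonuclease III fold, differed by -0.01, while its other expressed sets were higher, at 0.10, 0.02 and 0.12. Mrpl58, a peptidyl-tRNA hydrolase that rescues stalled ribosomes, differed by -0.08. Mrpl15 was read by 7 expressed probe sets, of which 6 were higher and 1 lower, from -0.14 to 0.35.

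In the small subunit, proteins with bacterial counterparts had a median of 0.05 over 16 genes. Mrps2 differed by 0.18, Mrps10 by 0.16 and Mrps14 by 0.13, and all expressed probe sets of these 3 genes were higher on the mir155KO array. The sets of Mrps14 ran from 0.13 to 0.47, with the widest difference at the weakest set. Mrps12, at the decoding centre, differed by -0.01, Mrps5 by 0.02, Mrps7 by 0.04 and Mrps16 by 0.06. The 10 mitochondria-specific genes had a median of 0.04, led by Mrps27 (0.16), a pentatricopeptide repeat protein, and Mrps18b (0.13). Mrps22, Mrps23 and Mrps34, in which mutations cause human mitochondrial disease, differed by 0.02, 0.06 and 0.04.

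Over both subunits, the 30 mitochondria-specific genes had a median of 0.05 (0.01 to 0.08 over the alternatives) and the 45 with bacterial counterparts 0.04, and this second median turned to -0.005 after centring on the level range. The difference did not follow the level (Pearson r = -0.005, Spearman rho = -0.03, over 76 genes that share both arrays).

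Promoter windows were examined for shared sequence. Windows of 300 bases (250 before and 50 after the annotated start, RefSeq, GRCm38.p6) were matched by gene ID for 67 members, which had 73 windows, and the other 9 members had none. Motifs were searched on both strands: CGCATGCG for the core of the NRF1 site, CCGGAAG for ETS factors including GABP, AAGATGG for YY1, CACGTG for the E-box bound by MYC, and TATAAA for the TATA box. No member window held overlapping matches of different motifs. NRF1, GABP and YY1 are known activators of nuclear genes for mitochondrial proteins.

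The windows of the highest members, Mrpl39 and Mrps15, and of the lowest, Mrpl22 and Mrps31, are given first to last by difference, with Mrpl32 between them because it alone held 2 NRF1 cores. Sequences run 5′ to 3′ on the gene's strand, and capitals mark matches to the motifs above.
Mrpl39 (chr16:84735195-84735494, minus strand): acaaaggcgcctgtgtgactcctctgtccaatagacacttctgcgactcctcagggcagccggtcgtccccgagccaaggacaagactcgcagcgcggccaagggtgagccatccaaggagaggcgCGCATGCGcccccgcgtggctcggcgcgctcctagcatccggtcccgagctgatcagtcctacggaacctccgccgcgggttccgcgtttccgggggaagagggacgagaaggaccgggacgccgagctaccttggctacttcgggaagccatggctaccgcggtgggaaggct
Mrps15 (chr4:126046678-126046977, plus strand): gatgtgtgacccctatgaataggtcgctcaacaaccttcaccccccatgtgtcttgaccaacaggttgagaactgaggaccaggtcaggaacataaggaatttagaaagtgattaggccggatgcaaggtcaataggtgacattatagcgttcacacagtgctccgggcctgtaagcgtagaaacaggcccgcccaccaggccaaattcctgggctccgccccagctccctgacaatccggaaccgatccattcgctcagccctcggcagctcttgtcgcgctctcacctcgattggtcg
Mrpl32 (chr13:14612988-14613287, minus strand): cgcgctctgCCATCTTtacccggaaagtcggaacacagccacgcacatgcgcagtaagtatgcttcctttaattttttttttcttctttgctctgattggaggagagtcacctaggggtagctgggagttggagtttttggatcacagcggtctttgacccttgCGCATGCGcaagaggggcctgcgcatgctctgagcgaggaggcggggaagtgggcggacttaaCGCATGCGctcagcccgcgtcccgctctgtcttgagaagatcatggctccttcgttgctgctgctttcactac
Mrpl22 (chr11:58171414-58171713, plus strand): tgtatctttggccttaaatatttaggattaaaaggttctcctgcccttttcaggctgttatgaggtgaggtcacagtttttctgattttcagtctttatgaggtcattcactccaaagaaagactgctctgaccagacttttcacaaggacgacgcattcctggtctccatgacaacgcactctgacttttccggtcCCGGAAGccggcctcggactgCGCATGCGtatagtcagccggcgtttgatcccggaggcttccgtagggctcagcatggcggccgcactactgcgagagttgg
Mrps31 (chr8:22411090-22411389, plus strand): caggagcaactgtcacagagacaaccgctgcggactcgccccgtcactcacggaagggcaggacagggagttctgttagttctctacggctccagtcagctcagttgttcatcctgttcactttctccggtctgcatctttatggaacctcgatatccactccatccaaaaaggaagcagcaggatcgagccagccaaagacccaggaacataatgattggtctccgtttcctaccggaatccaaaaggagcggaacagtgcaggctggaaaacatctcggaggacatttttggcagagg

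The window of Mrpl39 held 1 NRF1 core, that of Mrps15 no motif, that of Mrpl32 2 NRF1 cores and a YY1 core, that of Mrpl22 an NRF1 core and an ETS core, and that of Mrps31 none. These windows were picked by their values or motifs, so no relation is read from them. The ETS core was found in 34.2% of member windows (25 of 73), against 18.1% of 11088 windows of expressed genes and 8.86% of all 32851 windows. The YY1 core was in 17.8% of member windows, against 7.45% and 6.34%, and the NRF1 core in 9.59%, against 3.89% and 1.87%. The E-box stood at 9.59% (5 genes), against 10.1% and 7.15%, and the TATA box at 6.85%, against 7.19% and 13.6%. Median GC content was 58.7% in member windows, 60.7% in windows of expressed genes and 52.7% in all windows. A match describes letters only and shows no binding.

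**Figure D4:**
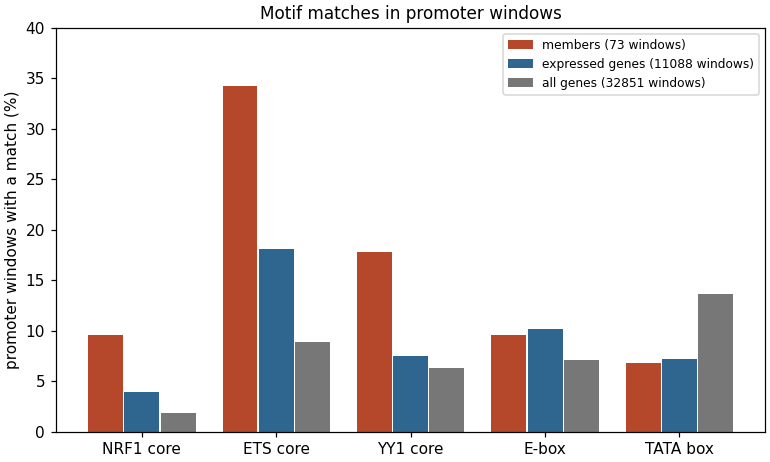
Share of promoter windows (%) that hold each motif, for member windows (73), windows of expressed genes (11088) and all windows (32851). ETS matches stand at 34.2% in members against 18.1% in expressed genes, while E-box and TATA box shares are close between members and expressed genes.

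The 7 members with an NRF1 core had a median log2 difference of 0.13, and members without one 0.04. These 7 were Mrpl39, Mrpl17, Mrpl32, Mrps18b, Mrpl10, Mrpl9 and Mrpl22, and their differences spanned -0.10 to 0.24. The 25 with an ETS core had a median of 0.03, against 0.05 for members without. The 13 with a YY1 core had 0.09, against 0.03 for members without. No test was possible on these medians.

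Head-to-head neighbours gave values from the same stretch of promoter. For 25 members the annotated start of another gene lay upstream on the other strand within 1000 bases, and for 20 of them the partner was expressed. Partners had a median difference of 0.04 and these members 0.03, and 12 of 20 pairs had the same sign (Pearson r = -0.08, Spearman rho = -0.08 over 20 members that share both arrays). Mrpl46 and Mrps11 are each other's partner and enter these counts from both sides. Mrpl46 and Mrps11, with starts 42 bases apart, differed by 0.03 and 0.01. Mrps12 differed by -0.01 and its partner Sars2, the mitochondrial seryl-tRNA synthetase gene, by -0.09. Mrpl43 differed by -0.05, whereas Twnk, the mitochondrial DNA helicase gene, differed by 0.24 from a start 116 bases away. Mrpl51 differed by 0.07 and Ncapd2, a condensin subunit gene, by 0.37.

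Other genes of mitochondrial translation were set beside the members. Mitoribosomal proteins under other names had a median of 0.03, turning to -0.004 after loess subtraction and -0.01 after centring on the level range. They were Ptcd3 (0.14), Dap3 (0.03), Chchd1 (0.02) and Gadd45gip1 (-0.01). Factors that assemble the ribosome or modify its RNA had a median of 0.08 over 29 genes, and of 0.03 to 0.14 over the alternatives. Of the 29 genes 23 were higher (79.3%), against 56.9% of expressed genes and 63.3% of genes in the members' level range. Noa1 (0.36), a GTPase needed for small-subunit assembly, Rcc1l (0.21) and Fastkd2 (0.20) were highest among the expressed, and Mterf3 (-0.10), Ndufab1 (-0.05) and Spg7 (-0.05) lowest.

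Translation factors and maturation enzymes had a median of 0.11 (0.07 to 0.16 over the alternatives). Higher were 19 of 21, against 56.9% of expressed genes and 63.3% of genes in the members' level range. Guf1 (0.31), Gatc (0.22) and Mtfmt (0.22), the methionyl-tRNA formyltransferase, were highest among the expressed, and Gfm1 (-0.01), an elongation factor, Oxa1l (0.00), the insertase for newly made proteins, and Tsfm (0.01) lowest. The elongation factor gene Tufm had log2 levels of 10.69 on the mir155KO array and 10.61 on the mir155WT array, a difference of 0.08. Genes of mitochondrial transcription and of its genome had a median of 0.16 over 19, and 7 of them were higher by 0.2 or more, against 12.6% of expressed genes. The median was 0.09 with the mean of probe sets and 0.06 over the 15 genes above the 75th percentile of levels. The list was led by Mterf2 (0.52), Polg2 (0.34) and Top1mt (0.29), with Mgme1 (-0.15), Hsd17b10 (-0.09) and Lonp1 (-0.06) at the low end. The polymerase gene Polrmt (-0.02) and the packaging factor gene Tfam (0.01) were nearly equal on the arrays.

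Regulators of nuclear genes for mitochondria had a median of 0.11 (0.07 to 0.16 over the alternatives). Higher were 12 of 13, against 56.9% of expressed genes and 63.3% of genes in the members' level range. Pprc1 (0.28), a serum-induced coactivator, Ppargc1b (0.25) and Gabpa (0.21) were the highest, and Myc stood at 0.17, Yy1 at 0.07 and Nrf1 at 0.04. The lowest expressed were Mycn (-0.02) and Gabpb1 (0.02), with Nrf1 next. Protein import genes had a median of 0.06 over 26 (0.02 to 0.06 over the alternatives), from Tomm70a (-0.05), Timm22 (-0.04) and Mtx1 (-0.04) to Timm8a1 (0.15), Timm44 (0.16) and Timm9 (0.33).

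Subunits of oxidative phosphorylation resembled the members, with a median of 0.03 and 54 of 74 higher (73.0%). Cytosolic ribosomal proteins had a median of 0.01 with 33 of 49 higher (67.3%). Higher were 56.9% of expressed genes and 63.3% of genes in the members' level range, so neither count is read as a result about these lists. Centring on the level range takes the same 0.04 from every gene, and it put the 2 medians at -0.009 and -0.03. The median levels of both lists lay above that range (12.59 on the mir155KO array for oxidative phosphorylation), so the shift is not matched to their level. The cytosolic list had median log2 levels of 14.84 on the mir155KO array and 14.81 on the mir155WT array. The highest value of the table was 15.4, and whether so high a level narrowed the differences of this list was not tested. The highest expressed oxidative phosphorylation genes were Atp5j (0.18), Atp5pb (0.17) and Ndufa12 (0.15), and the lowest Uqcrfs1 (-0.23), Ndufs1 (-0.18) and Atp5mpl (-0.13). Among cytosolic ribosomal proteins Rpl37 (0.26), Rpl14 (0.24) and Rpl22l1 (0.21) were highest, and Rps4l (-0.51), Rpl27a (-0.03) and Rps27l (-0.03) lowest among the expressed. Genes of cell division had a median of 0.28 (0.21 to 0.29 over the alternatives), with 19 of 20 higher, against 56.9% of expressed genes. They were led by Aurkb (0.49), Mki67 (0.48) and Mcm7 (0.43), with Mcm2 (-0.01), Pcna (0.10) and Plk1 (0.18) lowest. B cell markers were higher in 8 of 9, with a median difference of 0.18. Stem and progenitor markers were lower in 5 of 6 (median -0.10), dendritic cell markers, which share Flt3 with that list, in 4 of 4 (median -0.18), T cell markers in 3 of 5 (median -0.06) and neutrophil and precursor markers in 6 of 11 (median -0.05). Macrophage and monocyte markers were lower in 6 of 7 (median -0.24), with log2 levels of 4.03 to 7.52 on the mir155KO array and 4.57 to 7.65 on the mir155WT array. Lower were 49.7% of all genes and 42.1% of expressed genes. With expressed markers only, 2 of 2 stem and progenitor, 2 of 2 dendritic cell and 2 of 4 T cell markers were lower. The same held for 2 of 2 neutrophil and precursor and 5 of 6 macrophage and monocyte markers. No share of cells is read from these few markers. The part of cell division and of other cells in the members' differences was not tested. Whether more cells or more RNA per cell lie behind a level cannot be told apart in bulk RNA.

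**Figure D5:**
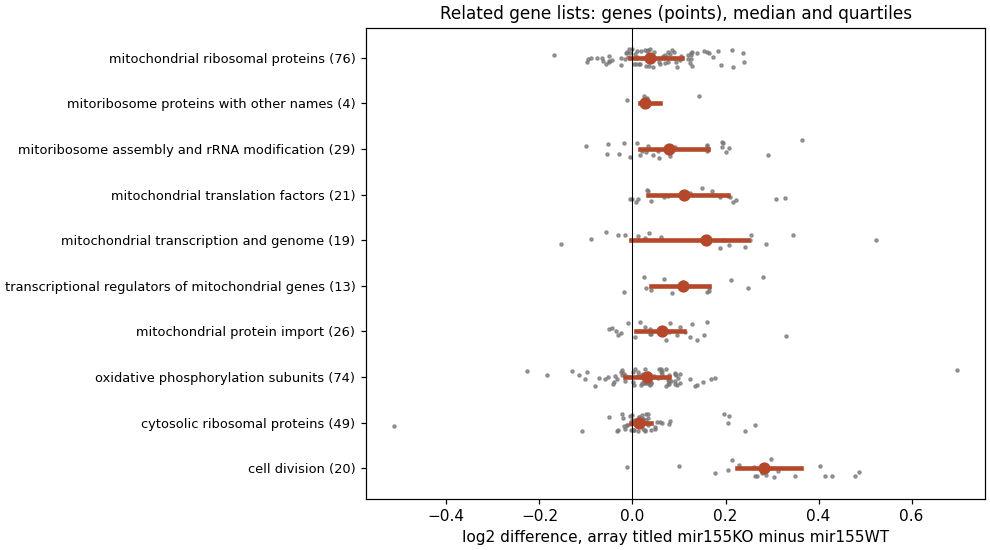
Log2 difference, mir155KO minus mir155WT, of each gene (points) with the median (large point) and quartiles (bar), for the 76 members and 9 related lists, with the number of genes in brackets. The members' median of 0.04 lies beside those of oxidative phosphorylation (0.03) and cytosolic ribosomal proteins (0.01), and cell division stands at 0.28. Centring on the level range takes the same value from every gene and puts those first 3 medians below 0.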

How the data were processed

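The deposited table holds log2 intensities of 45101 probe sets, from 3.09 to 15.4, made by the authors from biotin-labelled cRNA on a mouse 3′ expression array, per the labels' protocols. The log2 unit was read from the values, and how probes were summarised and normalized was not stated in the sources used here. Probe sets were named from the platform annotation, and 34945 named a single gene. All 76 members matched a RefSeq gene (GRCm38.p6) by Entrez number with the same symbol. The number of arrays, 1 per title, limits the precision, so no test was run and no paired analysis exists.

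Every member could be named. Of each other list the 3 highest and 3 lowest expressed genes were named, with genes of described role. Members, lists and motifs were chosen with earlier results of these data known. Probe set choice was checked on simulated data in which all probe sets of a gene shared the same true difference. That check could not cover disagreement between the sets of a gene. Alternatives were the mean of probe sets, plain _at sets, quantile normalization, a loess curve (span 0.3), centring on all genes or, added after seeing the data, on the level range, and filters at the median and 75th percentile of levels. Python 3.11.15, pandas 2.3.3, NumPy 2.4.6 and statsmodels 0.14.6 were used.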

Additional observations from a re-analysis of the deposited data

How the results depend on the processing

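The members' median log2 difference stayed between -0.003 and 0.065 under all alternatives run. Counts of members moved with scaling. Quantile normalization left 2 members higher by 0.2 or more, against 4 before. Loess subtraction gave 35 lower members, 1 higher by 0.2 or more (Mrpl39) and 1 lower by as much (Mrps31). Centring on the level range, chosen after seeing the data, gave 39 lower, 0 higher by 0.2 or more and 1 lower by as much. The median of the mitochondrial transcription and genome list was 0.062 over the 15 genes above the 75th percentile of levels. Mrps9 turned to -0.0303 with plain _at probe sets. All 76 members passed both filters on level, so these changed none of their values. Centring on all genes subtracted a median of 0 and changed none of them either. With the mean of probe sets 11 of 76 members turned sign and with plain sets 7 of 62, mostly members near 0. No paired analysis was possible because each title has 1 array, and no array could be left out.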

Other observations

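Of the 156 probe sets that name only a member, 19 lay below the level taken as expression. None of them gave the main value of a gene, while the alternatives with the mean of probe sets or with plain _at sets included such sets. Their log2 differences, mir155KO minus mir155WT, ran from -0.09 to 0.39 with a median of 0.06, and 11 of 19 were higher. The highest was the weakest probe set of Mrpl1, with log2 levels of 5.13 on the mir155KO array and 4.74 on the mir155WT array, while the 2 expressed sets of Mrpl1 differed by -0.07 and 0.05. A low probe set of Mrps26 differed by 0.30 where the set used differed by 0.01.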
